A study of Saccharomyces cerevisiae with 19 samples.

Results

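The 6 mRNA-seq libraries of a yeast library-preparation study were compared by replicate number: the 3 titled replicate 1 against the 3 titled replicate 2, paired within the preparations Nonrandom, 4N and 4+3N. They are 6 of the 19 libraries of the series, and the other 13 hold ribosome footprints. All libraries came from wild-type Saccharomyces cerevisiae BY4741, a haploid MATa laboratory strain, grown in YPD medium and given cycloheximide for 1 min before filtration and freezing. The preparations differ in whether the linker and the reverse transcription primer carry random bases, written N. Groups follow the sample titles; the deposited names of the tables have 3N for 4N and 4N for 4+3N, so which oligonucleotides stand behind these 2 names is uncertain. No group differs in genotype, medium or drug, so the only label that separates the groups is the replicate number. The labels do not say whether a replicate number stands for a separate culture, nor whether the 3 libraries of 1 number were made from the same RNA. The p-values below therefore measure only the spread between these libraries, which may be technical.

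A replicate comparison of this kind shows how far mRNA libraries differ when no label but the replicate number separates them, whether through the cells or the library making. In budding yeast the transcripts of ribosomal proteins make up a large share of all mRNA and move together with growth rate, through the TOR and protein kinase A pathways. Stress genes under the activators Msn2 and Msn4 move the other way. Iron uptake genes follow the activators Aft1 and Aft2, and genes of the cell cycle, the cell wall and mating follow the phase and the state of the cells at harvest.

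The mRNA libraries held between 1838817 and 3497303 counted reads, and a gene with 0 reads could still stand at 3 counts, which is 0.858 to 1.63 CPM (reads scaled to a common library total). The 10 genes with most reads took 12.8% to 13.7% of reads in each library. Of 5736 genes with a read in any mRNA library, 5380 passed the filter on low counts. STE2, the alpha-factor receptor that marks a cells, read between 745 and 798 normalised CPM in the 6 libraries. STE3, the receptor of alpha cells, lay between 5.22 and 7.85 and MF(ALPHA)1, an alpha-factor gene, between 0 and 0.437. Of the other alpha-specific genes MF(ALPHA)2 read 5.67 to 11.4 and SAG1, the alpha-agglutinin, 35.9 to 51.9, while the a-specific AGA2, of the a-agglutinin, read 27.5 to 51.9. These levels are not scaled to gene length. LEU2, MET17 and URA3, auxotrophic marker genes, were listed in no mRNA library, and HIS3 read between 59.2 and 78.6 normalised CPM. STE2 did not pass the test between replicates (log2 difference 0.02, SE 0.06, edgeR adjusted p = 0.908). Differences below are replicate 2 minus replicate 1 on the log2 scale, and CPM values carry the TMM scaling factors (0.97 to 1.02).

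Most genes read alike in both replicates. Among the 2757 genes with a mean of at least 64 CPM, 84.4% (Nonrandom), 86.9% (4N) and 90.5% (4+3N) lay within 1.2-fold of each other in the replicates of 1 preparation. Beyond 1.5-fold lay 13 genes in Nonrandom, 1 in 4N and 3 in 4+3N. The Pearson correlation of log2 CPM across these genes, which are not independent replicates, ran from 0.989 to 0.992. The gene with the second highest mean count, FBA1 for the glycolytic aldolase, read 18553, 17556 and 16795 normalised CPM in replicate 1 (Nonrandom, 4N, 4+3N) and 17955, 18379 and 17096 in replicate 2. The values of the replicates overlapped, and the difference of 0.01 (SE 0.07, edgeR adjusted p = 0.947) did not pass. None of the 6 genes with most reads (PDC1, FBA1, TDH3, ADH1, ENO2 and PGK1, all of glycolysis or fermentation) passed, with differences from −0.05 to 0.07.

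Replicates were set beside preparations to see which label separated libraries more. The SD of the log2 ratio over the 2757 genes was 0.157 (4+3N), 0.174 (4N) and 0.188 (Nonrandom) between replicates. Between preparations of the same replicate it ran from 0.127 to 0.160 over 6 pairs of libraries, so the closest replicate pair lay within that range and the others above it. Counting error alone came to between 0.107 and 0.117 for the replicate pairs. The spread beyond counting was 0.104 to 0.155 between replicates and 0.0624 to 0.118 between preparations, ranges that overlap. The fit with preparation as a block gave a biological coefficient of variation of 4.32%.

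**Figure D1:**
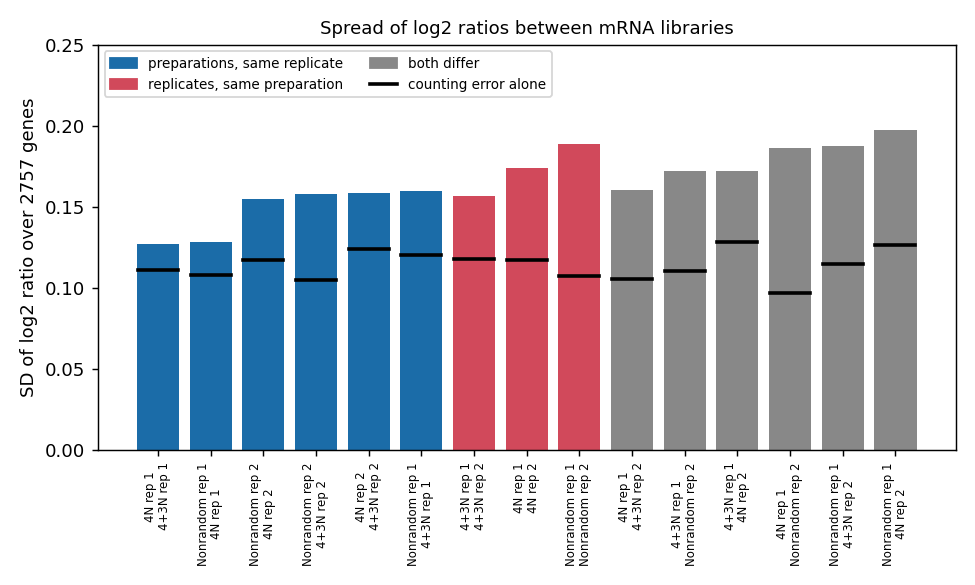
SD of the log2 ratio of CPM over 2757 genes for each of the 15 pairs of mRNA libraries (bars, y axis in log2 units from 0), with the SD that counting error alone gives (black lines). The 3 replicate pairs (red) lie between 0.157 and 0.188, and the 6 pairs of preparations of 1 replicate (blue) between 0.127 and 0.160.

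Few genes passed the test after adjustment, which does not show that few differed. Of 5380 genes, 48 (0.892%) passed edgeR's quasi-likelihood test at an adjusted p below 0.05, 10 higher in replicate 2 (0.186%) and 38 lower (0.706%). Their adjusted p-values ran from 0.0163 to 0.0494 and their absolute log2 differences from 0.23 to 1.07. Only 2 of them, GDB1 and POG1, differed by over 1.5-fold (0.0372% of genes tested). At an unadjusted p below 0.05 stood 893 genes (16.6%), 422 higher (7.84%) and 471 lower (8.75%). All 48 had the same sign in the 3 preparations, as did 36.7% of all genes tested. Across the 2757 genes with at least 64 CPM, the differences in Nonrandom and 4N correlated at 0.508. The differences in 4+3N correlated at 0.242 with those in Nonrandom and at 0.259 with those in 4N. In 47 of the 48 the 3 libraries of replicate 1 did not overlap those of replicate 2. Over all genes tested 9.18% were higher and 11.3% lower without overlap.

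The count of calls rested on which preparation pairs were in the fit. With preparation as a block, a library whose partner is left out no longer adds to the replicate comparison. Without the Nonrandom library of replicate 1, the 4N library of replicate 1 or the Nonrandom library of replicate 2, edgeR called 0 genes (525, 518 and 537 at an unadjusted p below 0.05). Without the 4N library of replicate 2 it called 4. Without the 4+3N library of replicate 1 or of replicate 2 it called 381 and 385 genes, all 48 among them. Without the 4+3N pair it called 374. DESeq2's Wald test called 19 genes, 17 higher and 2 lower, 5 of them among the 48; it gave an adjusted p to 374 genes only, which left 41 of the 48 without one.

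Among the higher genes that met the rule for named genes, which requires no overlap between the replicates, RPN9 had the largest difference. It encodes a lid subunit of the proteasome, on chromosome IV from 1322205 to 1323386 (build R64, also called sacCer3). RPN9 read 196, 222 and 229 normalised CPM in replicate 1 and 285, 261 and 256 in replicate 2, in the order Nonrandom, 4N and 4+3N. All replicate 2 libraries were higher, by 0.32 (SE 0.07, edgeR adjusted p = 0.0452). ARN2, a transporter of iron-loaded siderophores, read 204, 221 and 225 against 284, 263 and 254 normalised CPM. It rose by 0.30 (SE 0.07, edgeR adjusted p = 0.0452) with no overlap. FRE1, a ferric reductase of the plasma membrane, read 725, 712 and 749 against 907, 818 and 870 normalised CPM, a rise of 0.25 (SE 0.06, edgeR adjusted p = 0.0452).

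Ribosomal protein genes made up 3 of the 10. RPS17A and RPS17B, which encode near-identical proteins of the small subunit, read 1561, 1644 and 1719 against 2099.6, 2172 and 1783, and 979.6, 1019 and 1046 against 1254, 1320.1 and 1117 normalised CPM. In both genes the 4+3N library of replicate 2 was the lowest of its replicate and still above all of replicate 1. The rises were 0.30 (SE 0.07) for RPS17A and 0.28 (SE 0.06) for RPS17B, and RPL26B of the large subunit rose by 0.26 (SE 0.06; edgeR adjusted p = 0.0452 in each). Each of the 3 has a near-identical copy, and how reads that fit both copies were counted is not given in the sources used here, so their split between copies is uncertain. The other rises that met the rule for named genes were CHP1, a chaperone of elongation factor 1A (0.29), PRS3, which makes phosphoribosyl pyrophosphate for nucleotide synthesis (0.28), and IFA38, a reductase of very long chain fatty acid synthesis (0.26). IFA38 read 242 to 260.2 normalised CPM in replicate 1 and 292 to 306 in replicate 2. The tenth gene, YLR264C-A with an annotated span of 117 nt, overlapped between replicates (110.01, 169 and 180 against 159, 194 and 237 normalised CPM). It was higher within each preparation, by 0.37 in the fit (SE 0.07, edgeR adjusted p = 0.0306), the largest of the 10, and is named here after its values were seen. Footprints of this gene read 0 normalised CPM in the 4 libraries of 4N and 4+3N. It lies on chromosome XII from 673828 to 673944, and RPS28B, a ribosomal protein gene, from 673131 to 673334. Which transcript the YLR264C-A reads came from was not tested.

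GDB1, which encodes the glycogen debranching enzyme, had the largest difference among lower genes that read at least 20 CPM. On chromosome XVI from 902044 to 906654, it read 34.9, 26.4 and 35.6 normalised CPM in replicate 1 and 20.9, 16.3 and 23.2 in replicate 2. The fall was −0.69 (SE 0.15, edgeR adjusted p = 0.0452) on 403 reads over the 6 libraries. POG1 had a larger difference on fewer reads (146 in all), 16.6, 8.70 and 13.8 against 6.39, 5.05 and 7.46 normalised CPM, or −1.07 (SE 0.25, edgeR adjusted p = 0.0452), and is named after its values were seen. In footprints of 4N and 4+3N, GDB1 differed by −0.34 (SE 0.12, edgeR adjusted p = 0.0201). POG1 differed there by 0.29 (SE 0.19, edgeR adjusted p = 0.299), the other way from its mRNA. With no preparation block neither gene passed in mRNA (edgeR adjusted p = 0.0600 for GDB1 and 0.0787 for POG1).

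Several of the falls were in genes for regulators, among them transcription factors and their partners. PIN4, a regulator of the DNA damage response and of prion induction, on chromosome II from 122753 to 124759, shared the smallest adjusted p. It read 94.7, 96.6 and 90.2 normalised CPM in replicate 1 and 62.4, 67.3 and 63.6 in replicate 2, a fall of −0.55 (SE 0.09, edgeR adjusted p = 0.0163). MIG1, the repressor of glucose-repressed genes, read 73.8, 65.1 and 70.3 against 46.7, 55.0 and 48.7 normalised CPM, a fall of −0.49 (SE 0.11, edgeR adjusted p = 0.0452). CYC8, the corepressor that works with Tup1, read 156, 165 and 157 against 114, 114 and 128 normalised CPM, a fall of −0.43 (SE 0.07, edgeR adjusted p = 0.0168). IFH1, a coactivator of ribosomal protein genes, read 72.0, 72.0 and 64.1 against 45.9, 52.2 and 52.2 normalised CPM and fell by 0.48 (SE 0.10). PDR1, an activator of multidrug resistance genes, fell by 0.42 (SE 0.08, edgeR adjusted p = 0.0271), and STE12, the activator of mating genes, by 0.36 (SE 0.08). None of these genes overlapped between replicates, which the rule for named genes required of all but STE12, named through its list.

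Genes of vesicle transport, endocytosis and the actin cytoskeleton also lay among the 38. USO1, a tether of vesicles between the endoplasmic reticulum and the Golgi, read 80.8, 82.5 and 77.4 against 60.1, 46.6 and 65.6 normalised CPM and fell by 0.48 (SE 0.11). VRP1, verprolin, read 110.01, 113 and 99.2 against 65.3, 78.0 and 91.9 and fell by 0.47 (SE 0.10), with the difference smallest in 4+3N (−0.11) and largest in Nonrandom (−0.75). ENT2, an epsin of endocytosis, fell by 0.43 (SE 0.09, edgeR adjusted p = 0.0401). SEC31, an outer coat protein of COPII vesicles, shared the smallest adjusted p with PIN4. It read 359, 324 and 319 against 252, 257 and 254 normalised CPM, a fall of −0.40 (SE 0.06, edgeR adjusted p = 0.0163), and is named with ABP1 after its values were seen. ABP1, an actin-binding protein of endocytic patches, read 261, 233 and 238 against 172, 206 and 180 and fell by 0.40 (SE 0.07). PCL1, a cyclin of the kinase Pho85 in G1, read 83.8, 83.7 and 84.5 against 62.7, 61.2 and 55.7 normalised CPM and fell by 0.49 (SE 0.09, edgeR adjusted p = 0.0306). The other falls within the rule were MDS3 (−0.44) and MMS1, a subunit of a ubiquitin ligase in DNA repair (−0.43). These roles were read off after the calls, and no list of transcription factors, vesicle or actin genes was examined.

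**Figure D2:**
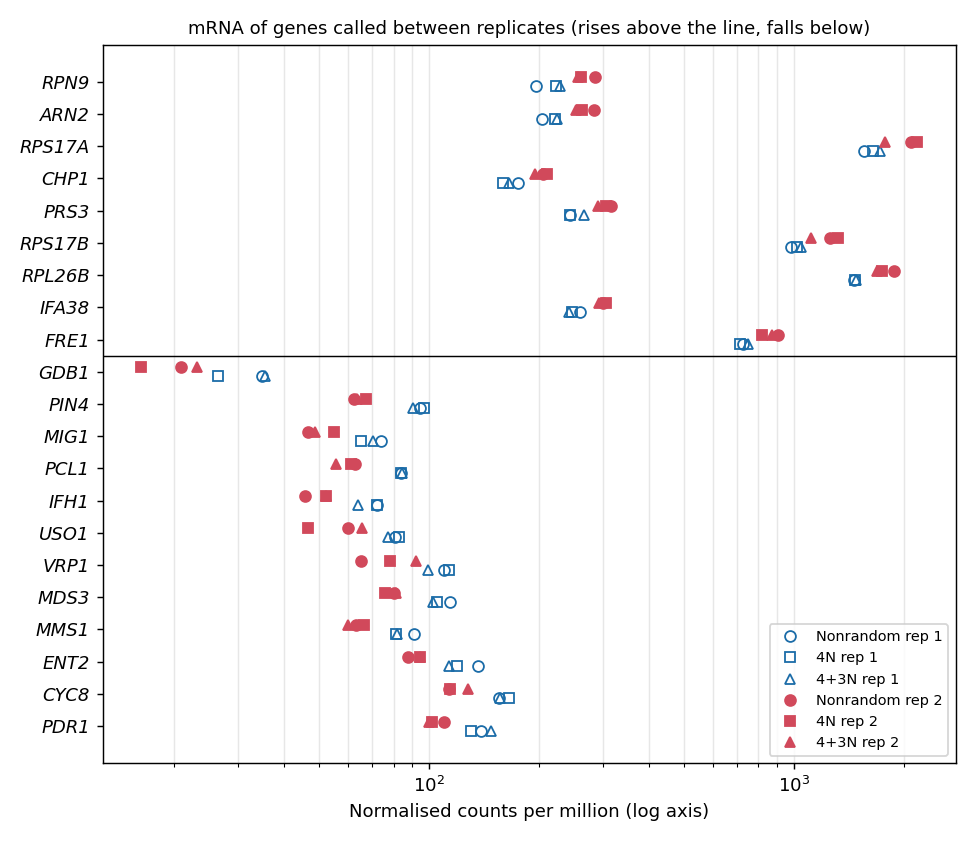
Normalised CPM (log axis) of the 9 rises and 12 falls that met the rule for named genes, in each of the 6 mRNA libraries (open blue, replicate 1; filled red, replicate 2; circle, Nonrandom; square, 4N; triangle, 4+3N). In every gene shown the libraries of the replicates do not overlap, as the rule requires. Values run from GDB1 at 16.3 to 35.6 up to RPS17A at 1561 to 2172.

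Genes called lower were mostly long, and the replicate difference followed gene length over the whole table. The median annotated span, start to end and with introns included, was 2502 nt for the 38 lower genes, 912 nt for the 10 higher and 1272 nt for all tested. Of the 38, 33 were longer than the median of all tested, against 2 of the 10. The median difference was 0.09 in the 145 genes up to 300 nt, 0.06 from 300 to 600 nt and 0.03 from 900 to 1200 nt. It was −0.02 from 1500 to 2000 nt, −0.06 from 2000 to 3000 nt and −0.10 in the 472 genes over 3000 nt. In that last group 15.7% of the differences were above 0, and 14 of the 38 lower calls fell there. The order held in each preparation, with medians over 3000 nt of −0.07 (Nonrandom), −0.12 (4N) and −0.12 (4+3N). It also held with ribosomal protein genes left out (0.08 up to 300 nt and −0.10 over 3000 nt).

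Across the 2757 genes with at least 64 CPM the correlation of the difference with log2 length was −0.447, and −0.237, −0.418 and −0.380 within Nonrandom, 4N and 4+3N. Footprint differences showed no such order: their medians ran from −0.03 to 0.02 over the same length groups. Preparations of replicate 1 differed from each other by slopes on log2 length of −0.01 to 0.005, those of replicate 2 by −0.04 to 0.02, and the replicates of 1 preparation by −0.05 (Nonrandom), −0.08 (4N) and −0.06 (4+3N). With the length trend of each library removed by an offset, edgeR called 19 genes (0.353%), 4 higher (0.0743%) and 15 lower (0.279%), 14 of them among the 48. Those 14 were PIN4, MIG1, PCL1, CYC8, ENT2, SEC31, ABP1, SED1, KRE1, OST3, CRP1, POG1, ARN2 and FRE1. GDB1 stood at −0.57 there (edgeR adjusted p = 0.0799), and none of the 3 ribosomal protein genes passed, at 0.24 (RPS17A), 0.22 (RPS17B) and 0.22 (RPL26B; edgeR adjusted p = 0.0755 to 0.0965).

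**Figure D3:**
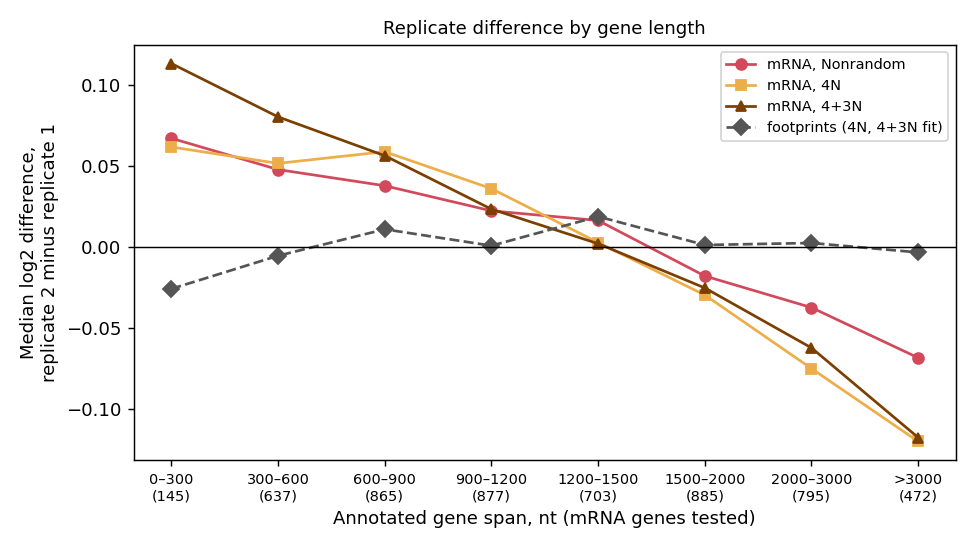
Median log2 difference (replicate 2 minus replicate 1) by annotated gene span in nt, for the mRNA libraries of each preparation (solid lines) and for footprints of 4N and 4+3N (dashed), with the number of mRNA genes tested under each group. The mRNA medians go from above 0 in short genes to between −0.07 and −0.12 over 3000 nt, and the footprint medians stay between −0.03 and 0.02.

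Ribosomal protein genes lay above 0 as a group in mRNA. Of 138 tested, 115 had a difference above 0, against 49.8% of all genes. In edgeR 3 were called higher (0.186% of all genes were) and 0 lower (0.706%). At an unadjusted p below 0.05 stood 52 higher, against 7.84% of all genes, and 1 lower, against 8.75%. The median of the 138 genes was 0.10, against 0.00 over all genes tested, and 0.07, 0.14 and 0.05 in Nonrandom, 4N and 4+3N. With the length trend removed the median was 0.05, and with 1 library left out it ran from 0.07 to 0.10. Genes without a near-identical copy had medians of 0.09 (12 of the large subunit) and 0.13 (8 of the small subunit). Together the genes took 18.1%, 18.4% and 18.3% of reads in replicate 1 and 19.2%, 19.9% and 19.2% in replicate 2 (Nonrandom, 4N, 4+3N). Every replicate 2 library held the larger share.

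RPS12, a small subunit protein with 1 gene copy, read 4296, 4201 and 4520.5 against 5465, 5425 and 4773 normalised CPM. Its difference of 0.27 (SE 0.07) did not pass in edgeR (adjusted p = 0.0596), and it was called by DESeq2. Of DESeq2's 17 higher genes 14 encode ribosomal proteins, as do 108 (28.9%) of the 374 genes to which it gave an adjusted p. RPP1A, an acidic protein of the ribosomal stalk, read 1821, 1758 and 1834 against 2389, 2241 and 1891, a difference of 0.26 (SE 0.07, edgeR adjusted p = 0.0596).

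The iron regulon, genes for iron uptake and its storage, held 2 of the 10 higher calls. Of its 25 genes tested, ARN2 and FRE1 rose (0.186% of all genes did), 0 fell, and 18 had a difference above 0 (49.8% of all genes did). At an unadjusted p below 0.05 stood 9 higher, against 7.84% of all genes, and 0 lower, and the median was 0.08 (0.09 with the length trend removed). SIT1, another siderophore transporter, read 513, 527 and 542 against 647, 591 and 614 normalised CPM (0.23, SE 0.06, edgeR adjusted p = 0.0596). ATX1, a copper chaperone for iron uptake, read 51.1, 55.2 and 57.9 against 68.5, 73.5 and 72.2 (0.39, SE 0.10, edgeR adjusted p = 0.0596). In both genes the libraries did not overlap. The list took between 0.583% and 0.608% of reads in replicate 1 and between 0.627% and 0.646% in replicate 2.

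Proteasome genes had a median of 0.07, with 28 of 33 above 0, against 49.8% of all genes. In edgeR 1 was called higher (RPN9), against 0.186% of all genes, and 0 lower. With the length trend removed the median was 0.05 and RPN9 did not pass (0.30, edgeR adjusted p = 0.0534). PRE3, a catalytic subunit, read 187, 194 and 188 against 219, 206 and 243 normalised CPM (0.23, SE 0.07, edgeR adjusted p = 0.0853). Ergosterol synthesis genes had 0 calls and a median of 0.03, with 20 of 25 above 0; the median was 0.07 with the length trend removed and 0.05 to 0.08 with 1 library left out. The largest difference in that list was in ERG24, a sterol reductase, at 204, 191 and 205 against 251, 229 and 232 normalised CPM (0.25, SE 0.06, edgeR adjusted p = 0.0596). The 10 histone genes had 0 calls and a median of 0.08, which was 0.02 with the length trend removed. HTA2, a histone H2A gene with a near-identical copy, read 702, 700.5 and 706 against 898, 887 and 714.

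Cell wall proteins lay below 0, with 1 of 28 called lower (0.706% of all genes were) and 0 higher. Their median was −0.10 with and without the length trend, and at an unadjusted p below 0.05 stood 8 lower, against 8.75% of all genes, and 0 higher. With 1 library left out the median ran from −0.11 to −0.06. SED1, a GPI-anchored glycoprotein of the wall, read 1095, 998 and 789.9 normalised CPM in replicate 1 against 692, 756 and 781 in replicate 2. It fell by 0.37 (SE 0.08, edgeR adjusted p = 0.0452), but the pairs differed: −0.66 in Nonrandom, −0.40 in 4N and −0.02 in 4+3N. CWP2, another mannoprotein, read 1268, 1143 and 1055 against 918, 982 and 1097 (−0.21, SE 0.07, edgeR adjusted p = 0.151) and overlapped. The list took 2.61%, 2.47% and 2.32% of reads in replicate 1 and 2.27%, 2.31% and 2.26% in replicate 2.

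The lists that follow are each to be read against the 0.706% of all genes called lower. Mating and pheromone response genes had 1 of 24 called lower (STE12), 0 higher and a median of −0.10. FIG2, an adhesin, read 82.1, 70.2 and 75.0 against 57.2, 53.3 and 63.6 normalised CPM (−0.39, SE 0.10, edgeR adjusted p = 0.0596), and AGA1, the anchor of a-agglutinin, differed by −0.31 (SE 0.08, edgeR adjusted p = 0.0596). Genes of the M/G1 boundary had 1 of 15 called lower, PRY3, a cell wall protein (−0.38, SE 0.08, edgeR adjusted p = 0.0417), 0 higher and a median of −0.09. SIC1, an inhibitor of B-type cyclin kinase in G1, read 60.7, 66.0 and 72.2 against 47.3, 45.4 and 55.7 normalised CPM (−0.42, SE 0.10, edgeR adjusted p = 0.0596). G1/S genes had 1 of 16 called lower (PCL1), 0 higher and a median of −0.05, and the 14 G2/M genes had 0 calls and a median of −0.03, which turned to 0.02 with the length trend removed and ran from −0.06 to 0.01 with 1 library left out.

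General stress genes had 0 of 34 called and a median of −0.09, with 6 above 0, against 49.8% of all genes. At an unadjusted p below 0.05 stood 4 lower, against 8.75% of all genes, and 1 higher, against 7.84%. HSP12, a small membrane-associated stress protein, read 10.9, 7.50 and 7.12 normalised CPM in replicate 1 and 4.35, 3.37 and 4.32 in replicate 2. The libraries did not overlap, and the difference of −1.09 (SE 0.30, edgeR adjusted p = 0.0699) did not pass at this depth. CTT1 of the same list went the other way, also without overlap. It read 22.7, 22.2 and 16.6 against 27.6, 26.9 and 25.5 normalised CPM (0.37, SE 0.16, edgeR adjusted p = 0.236). Hexose transport and glucose sensing genes had 1 of 16 called lower (MIG1) and 0 higher. Amino acid biosynthesis had 1 of 59 called lower, ASN1, asparagine synthetase, at 709, 695 and 647 against 594, 579 and 569.6 normalised CPM (−0.23, SE 0.06, edgeR adjusted p = 0.0494), and 0 higher. Purine synthesis had 1 of 20 called higher (PRS3), against 0.186% of all genes, and 0 lower. Ribosome biogenesis factors had 0 of 84 called and a median of 0.01. The remaining lists, among them chaperones, glycolysis, respiration, phosphate, sulfur, nitrogen and hypoxic genes, had 0 calls in edgeR, and their counts at an unadjusted p below 0.05 were 0 to 5 genes in either direction.

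**Figure D4:**
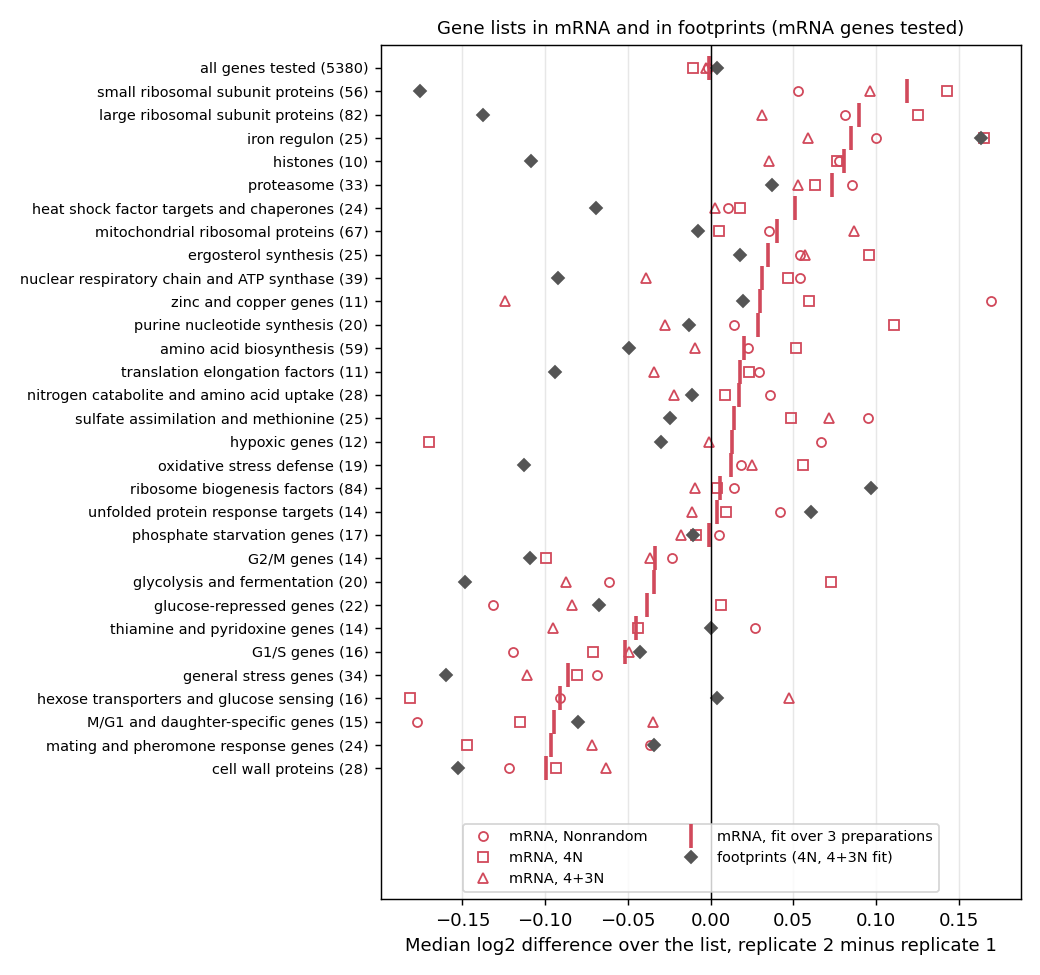
Median log2 difference (replicate 2 minus replicate 1) over each gene list with at least 10 genes tested, in mRNA by preparation (open red), in the mRNA fit over 3 preparations (red bars) and in the footprint fit of 4N and 4+3N (grey diamonds), with the number of mRNA genes tested in brackets. Ribosomal protein lists lie at 0.09 and 0.12 in mRNA and at −0.14 and −0.18 in footprints, and cell wall proteins lie below 0 in both.

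The footprint libraries of 4N and 4+3N that carry the same replicate numbers gave a second readout in 4 libraries that share none with the mRNA comparison. The labels do not say that equal numbers mean the same cells, and the 4+3N footprint library titled replicate 2 carries replicate 1 among its characteristics; its title was followed. Of 5228 genes tested there 1147 (21.9%) were called, 479 higher (9.16%) and 668 lower (12.8%), at a biological coefficient of variation of 1.78% and with 1 residual degree of freedom. With 1 library left out, and then no block, the count was 92 (4N replicate 1), 173 (4+3N replicate 1), 442 (4+3N replicate 2) and 732 (4N replicate 2), and the overlaps that follow rest on the fit of all 4. Of the 48 genes called in mRNA 47 were tested, and 23 were called in footprints, 21 with the same sign. That is 48.9% of the mRNA calls and 2.01% of the footprint calls. Of the 38 genes lower in mRNA 31 had a footprint difference below 0, and of the 9 higher genes tested 5 had one above 0. Of all 5228 genes tested in footprints 2656 had a difference above 0, so the 5 of 9 lay near the share of all genes. Across 2754 genes with at least 64 CPM in mRNA the correlation of the 2 differences was 0.204.

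Genes with the same direction in both assays included ARN2, FRE1, VRP1, ABP1 and SED1. Footprints of ARN2 read 83.2 and 78.6 normalised CPM in replicate 1 (4N, 4+3N) and 104 and 119 in replicate 2, a rise of 0.44 (SE 0.06, edgeR adjusted p = 3.94e-11). Those of VRP1 read 212 and 186 against 158 and 132, a fall of −0.45 (SE 0.04, edgeR adjusted p = 9.77e-19). ABP1 fell by 0.40 and SED1 by 0.36 in footprints, and FRE1 rose by 0.18. In the iron regulon 11 of 24 genes were called higher in footprints (9.16% of all genes) and 1 lower (12.8%), with a median of 0.16. Among cell wall proteins 11 of 22 were called lower and 1 higher, against the same shares of all genes, with a median of −0.15. HSP12, which did not pass in mRNA, fell by 0.72 in footprints (edgeR adjusted p = 0.000411).

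Ribosomal protein genes went opposite ways in the assays. In footprints 91 of 138 were called lower (12.8% of all genes were) and 4 higher (9.16%), with a median of −0.16, against a median of 0.10 in mRNA. Other lists also fell in footprints. Called lower were 14 of 20 glycolysis and fermentation genes (median −0.15), 6 of 11 translation elongation factors and 5 of 10 histone genes. Called higher in these lists were 0, 0 and 1. Ribosome biogenesis factors went the other way, with 32 of 84 called higher, 3 lower and a median of 0.10. Ribosomal protein genes took 18.0% and 18.6% of footprint reads in replicate 1 and 17.5% and 17.9% in replicate 2 (4N, 4+3N), so the larger footprint share stood in replicate 1. The difference between assays was tested as an interaction over the 8 libraries of 4N and 4+3N. Of 5512 genes 175 (3.17%) passed, 38 with the footprint difference above the mRNA difference (0.689%) and 137 below it (2.49%). Ribosomal protein genes made up 69 of the 137, and 0 of them lay above. RPS17A, higher in mRNA, read 972 and 1073 normalised CPM against 807 and 851 in footprints, a fall of −0.30 (SE 0.03, edgeR adjusted p = 3.98e-18), and its interaction was −0.54 (SE 0.08, edgeR adjusted p = 9.21e-05).

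Of the 48 genes called in mRNA 7 passed the interaction: RPS17A, RPS17B, RPL26B and CHP1 below, and SEC31, CYC8 and PDR1 above. Footprints of SEC31 read 719.5 and 689 against 712 and 675 normalised CPM, and those of PDR1 53.0 and 54.9 against 53.0 and 54.7. Neither passed in footprints (−0.02 and −0.001). With 1 of the 4 footprint libraries left out, the interaction passed for 2 to 6 genes. With the length trend removed it passed for 96 genes, 81 of them below.

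**Figure D5:**
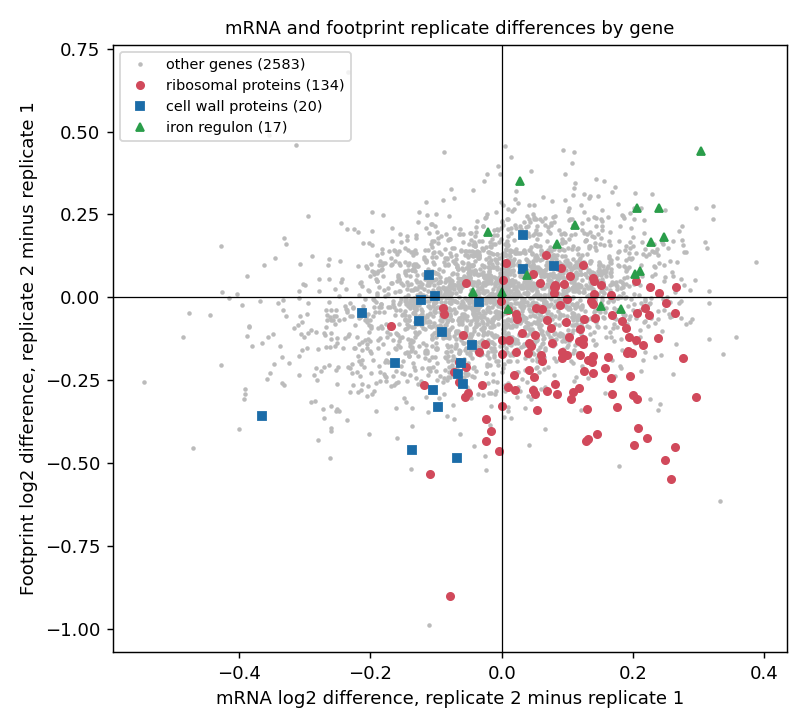
mRNA log2 difference (x axis) against footprint log2 difference (y axis), replicate 2 minus replicate 1, for 2754 genes with at least 64 CPM in mRNA. Ribosomal protein genes (red, 134) lie mostly right of 0 and below 0, 90 of them in that quadrant; 22.1% of all genes shown lie there.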

How the data were processed

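Each library's table, as the authors deposited it, gives raw read counts by gene; a gene missing from a table was taken as 0. CASAVA 1.8 and Bowtie 1.0.0 with sacCer3 are named per the submitters' processing notes. The counting rule, its strand and the handling of multiple alignments are not given in the sources used here. Gene positions come from the R64 RefSeq annotation. Genes were filtered with filterByExpr, scaled by TMM and tested with edgeR 4.0.16 in R 4.3.3 (quasi-likelihood F test, two-sided), with preparation as a block (2 residual degrees of freedom) and Benjamini-Hochberg adjustment over all genes tested, at 0.05. SE is the absolute log2 difference over the square root of F. DESeq2 1.42.0 was an alternative. The tests were run on simulated counts drawn at a fixed dispersion, without a length trend or disagreement between preparations. That run therefore cannot speak to these features of the data. The Nonrandom footprint pair entered only an alternative, because its replicate 1 table lists 5559 genes again with other counts. Near-identical copies were marked by name. Named genes were up to 12 rises and 12 falls among called genes that averaged 20 CPM or more in 1 replicate, had the same sign in 3 preparations and did not overlap; the 4 members of each list with the smallest p; the 6 genes with most reads; and markers. The comparison, lists and tests were chosen with earlier results of these data known. Floors cover counting error only.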

Additional observations from a re-analysis of the deposited data

Results flagged for a closer look

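The replicate difference of 175 genes differed between mRNA and footprints by the interaction test (edgeR adjusted p below 0.05). Of the genes named here 20 were among them, and the values that follow are the footprint minus the mRNA log2 difference. Among ribosomal protein genes they were −0.66 in RPP1A, −0.54 in RPS17A, −0.43 in RPS17B, −0.34 in RPS28B, −0.32 in RPL40A and −0.27 in RPL26B. The histone genes HTA2 and HTA1 stood at −0.52 and −0.40, MFA2, an a-factor gene, at −0.48, and TRX2, a thioredoxin, at −0.38. ERG26 of sterol synthesis stood at −0.31, CHP1 at −0.31, NHP2, a small nucleolar RNP protein, at −0.29 and ADH1, alcohol dehydrogenase, at −0.28. Above 0 lay SEC31 (0.30), RRP12, a ribosome export factor (0.31), STE6, the a-factor exporter (0.38), CYC8 (0.41), PDR1 (0.45) and NOP53, a 60S assembly factor (0.49). With the length trend removed 5 of the 20 passed: RPP1A, RPS17A, RPS17B, HTA2 and HTA1.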

How the results depend on the processing

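No called gene changed sign under any of the 15 mRNA alternatives that gave it an adjusted p. All 48 had the same sign in the 3 preparations, so refits of the same counts could hardly reverse one. The calls themselves moved: 0 of the 48 genes stayed called in every alternative. Of 675 values of called genes under the alternatives, 254 did not pass. The 48 mRNA calls became 19 by DESeq2's Wald test and 19 with the length trend removed. They became 86 with no filter, 79 with no preparation block and 374 without the 4+3N pair. Leaving out 1 library, which with the block takes its pair out of the comparison, gave 0 to 385. With near-identical copies left out 32 of 45 remained called. The 2 calls over 1.5-fold became 0 by DESeq2 and 1 each with a mean of at least 20 CPM, with no preparation block, without near-identical copies or with the length trend removed, and 0 to 25 without 1 library. The 1147 footprint calls became 92 to 732 without 1 library (then fitted without the block). The 175 interaction calls became 277 with the Nonrandom pairs, 96 with the length trend removed and 2 to 372 without 1 library. The cause was not tested. The length, 4+3N and interaction leave-out alternatives were added after seeing the data. Depth limits genes read near the floor, such as HSP12 and POG1.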
